A study of Mus musculus with 12 samples.

Results

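RNA polymerase II (Pol II) occupancy was read at the genes Hnf4a and Hnf4g and at Hnf4aos, a noncoding gene transcribed from the opposite strand of the Hnf4a locus. The 3 genes were chosen by symbol, and all 3 were among the 6429 genes of both comparisons that the authors deposited. Their RefSeq transcripts held 5 of the 44308 promoter windows and 5 of the 41048 gene body windows of the deposited count tables. Pol II chromatin immunoprecipitation with sequencing had been done on epithelium of the mouse duodenum, the first stretch of the small intestine. The labels list 9 Pol II libraries, 3 each from villi of wild-type (WT) adult mice given oil vehicle, from crypts of such mice, and from villi of adult mice labelled Hnf4 alpha and gamma double knockout (DKO). There were also 3 input libraries, 1 per group. The DKO mice received tamoxifen at 50 mg/kg/day for 2 days and were killed 1 day after the last injection. Their tissue was kept in EDTA for 25 minutes, against 35 minutes for WT tissue, so genotype, tamoxifen and EDTA time cannot be told apart. The labels do not give the Hnf4a and Hnf4g alleles, the Cre driver, or whether animals were pooled.

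HNF4A and HNF4G are nuclear receptors that bind DNA and activate genes of differentiated epithelium, in the intestine above all genes of fat absorption and digestion. They bind the same kind of site and overlap in function in the intestinal lining. Hnf4a is transcribed from alternative promoters, an upstream start called P2 and a downstream start called P1, which give isoforms with different N-termini. Pol II ChIP-seq records where polymerase sits on a gene, paused near the start or travelling through the body, and does not measure the protein.

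The 3 RefSeq transcripts of Hnf4a used 2 distinct promoter windows. In the authors' mm9 coordinates the upstream window lay at chr2:163332493-163332894 and was shared by transcripts NM_001312906 and NM_001312907. The downstream window, of transcript NM_008261, lay at chr2:163372791-163373192. The starts were 40298 bp apart. Hnf4aos, transcript NR_027970, had its promoter window at chr2:163367156-163367557 on the opposite strand, with its start 5434 bp upstream of the downstream Hnf4a start and 34864 bp inside the longer Hnf4a transcripts. All 3 spacings were identical in the RefSeq annotation of GRCm38.p6. Hnf4g had a single transcript, NM_013920, with its promoter window at chr3:3507930-3508331 and a gene body window of 150921 bp.

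**Figure D1:**
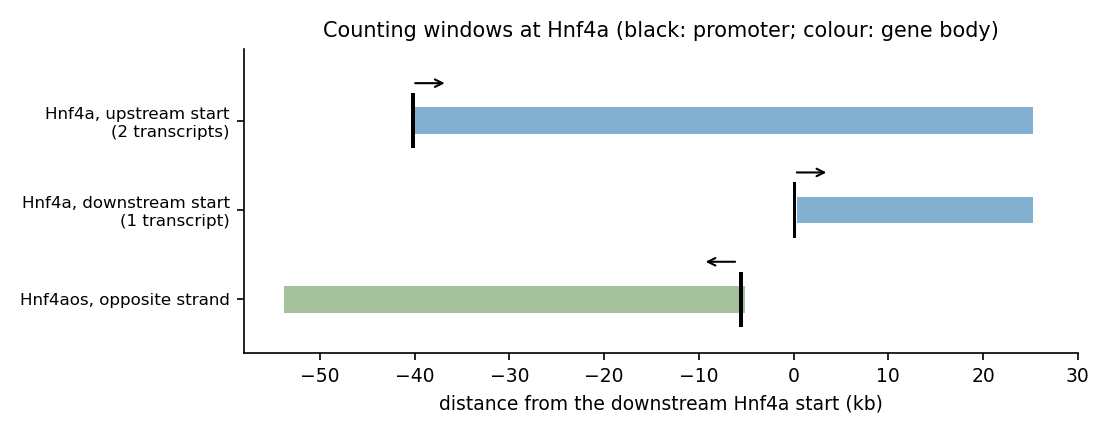
Counting windows at the Hnf4a locus, by distance in kb from the downstream Hnf4a start, with promoter windows in black, gene body windows in colour and arrows for the direction of transcription. The Hnf4aos body window covers the upstream Hnf4a promoter window and ends before the downstream one.

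The promoter sequences of the locus are shown to compare its 3 starts. They run from 250 bases before to 50 bases after each RefSeq start in GRCm38.p6, 5′ to 3′ on the strand of the gene, and cover chr2:163506607-163506906 for the upstream Hnf4a start, chr2:163546905-163547204 for the downstream Hnf4a start and chr2:163541672-163541971 on the minus strand for Hnf4aos. Capitals mark matches to the motifs searched.
Hnf4a upstream: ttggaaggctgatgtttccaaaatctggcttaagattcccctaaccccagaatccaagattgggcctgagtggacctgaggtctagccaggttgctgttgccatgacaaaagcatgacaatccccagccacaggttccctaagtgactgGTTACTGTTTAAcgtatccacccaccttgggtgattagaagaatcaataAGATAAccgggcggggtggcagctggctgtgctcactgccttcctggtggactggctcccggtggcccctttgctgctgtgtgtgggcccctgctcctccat
Hnf4a downstream: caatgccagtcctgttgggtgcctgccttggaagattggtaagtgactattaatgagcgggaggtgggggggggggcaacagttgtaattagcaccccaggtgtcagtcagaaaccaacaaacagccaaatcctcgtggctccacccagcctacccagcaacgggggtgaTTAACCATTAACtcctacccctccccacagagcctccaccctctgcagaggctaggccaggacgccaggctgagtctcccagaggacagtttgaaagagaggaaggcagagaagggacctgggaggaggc
Hnf4aos: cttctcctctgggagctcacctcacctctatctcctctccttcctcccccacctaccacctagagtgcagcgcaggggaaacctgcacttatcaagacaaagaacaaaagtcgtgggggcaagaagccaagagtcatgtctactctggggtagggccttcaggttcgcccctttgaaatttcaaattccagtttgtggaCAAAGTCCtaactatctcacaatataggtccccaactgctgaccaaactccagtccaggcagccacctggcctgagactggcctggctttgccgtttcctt

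The motifs were chosen after the sequences had been read, and both strands were searched. They were GTTANT followed directly by NNTTNA, which resembles the site of the factor HNF1, CAAAGTCC, which resembles the core of an HNF4 site, AGATAA of GATA factors and the TATA box TATAAA. An HNF1-like match lay at both Hnf4a starts, from 101 to 90 bases before the upstream start and from 80 to 69 bases before the downstream start. Such a match was in 0.935% of the 32851 RefSeq promoter sequences of this length. The HNF4-like match was at Hnf4aos alone of the 3, from 51 to 44 bases before its start, and occurred in 1.42% of all promoters. The GATA match was at the upstream Hnf4a start alone, from 52 to 47 bases before it, against 11.2% of all promoters. None of the 3 sequences held TATAAA, which was in 13.6% of promoters. All 3 sequences had 4 CpG dinucleotides, against a median of 7, and a GC content of 54.0%, 57.3% and 52.7% in the order shown, against a median of 52.7%. A match says only that these letters are present.

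The windows of the locus overlapped, and the recorded counting used no strand and assigned a read pair to every window it touched. The body window of the longer Hnf4a transcripts spanned 65201 bp, and 34865 bp of it (53.5%) were also in the Hnf4aos body window of 48768 bp, where they made up 71.5%. In the body counts, Pol II on that stretch was therefore assigned to both genes, whichever strand it transcribed. An overlap of at least this share with a body window on the other strand was found for 245 of the 6403 genes of the tables that had a body window (3.83%). The upstream Hnf4a promoter window lay wholly inside the Hnf4aos body window. The downstream promoter window and its body window of 24903 bp overlapped no Hnf4aos window, but lay wholly inside the body window of the longer Hnf4a transcripts. The Hnf4g windows overlapped no other window.

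The deposited tables give 1 value per gene, so the alternative Hnf4a promoters could not be compared by Pol II signal. The count tables have no line naming their columns, and the 9 columns of each were not used. Values per library are for this reason not given, and whether single libraries of the groups overlap was not analysed here. The labels' 3 libraries per group are not stated to come from separate animals, and the number in the authors' fit is not stated, so p-values measure the spread between the libraries of that fit. Which window the gene values were counted over is also not stated, and levels are compared below only within a gene.

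Between WT villus and WT crypt, Pol II at Hnf4a and Hnf4g was not told apart, and Hnf4aos was slightly higher in villus. The mean signal over all libraries, in counts divided by size factors, was 1525 for Hnf4a, 1786 for Hnf4g and 756 for Hnf4aos in the authors' deposited tables. The log2 fold change of villus over crypt at Hnf4a was 0.15 ± 0.14 (SE) in the authors' deposited table, with a DESeq2 adjusted p of 0.429. Its 95% interval, of -0.13 to 0.43, holds changes up to 1.35-fold. Hnf4g stood at -0.11 ± 0.22 in the authors' deposited table (adjusted p 0.737), with a wider interval of -0.55 to 0.33. Neither interval excludes a modest difference. Hnf4aos stood at 0.31 ± 0.09 in the authors' deposited table (adjusted p 0.00204), a 1.24-fold higher signal in villus with an interval of 1.10 to 1.40. At an adjusted p under 0.05, 1 of the 3 genes was called in this comparison, beside 37.4% of all genes. The enterocyte genes of the same table moved more, as given below.

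Between WT villus and the villi labelled DKO, Pol II was higher at both targeted genes in the labelled-DKO villi and lower at Hnf4aos. Hnf4g moved most. Its signal in the authors' deposited table was 2.74-fold higher in labelled-DKO villus, with a 95% interval of 2.02 to 3.71 and a DESeq2 adjusted p of 7.81e-10. Of all 6429 genes, 44 had a change further toward labelled-DKO villus, which put Hnf4g at rank 45. In the authors' deposited table Hnf4a was 1.46-fold higher, with an interval of 1.20 to 1.77 and an adjusted p of 4.84e-04, at rank 780 in the same order. The intervals of the 2 targeted genes did not overlap, but the difference between them was not tested. In the authors' deposited table Hnf4aos had the opposite sign, 1.57-fold higher in WT villus with an interval of 1.39 to 1.77 and an adjusted p of 2.31e-12. All 3 genes were called, beside 51.9% of all genes. Of all genes 29.5% passed with more signal in labelled-DKO villus, as Hnf4a and Hnf4g did, and 22.4% with more in WT villus, as Hnf4aos did. After centring on the median of all genes, which was -0.08, the log2 changes of WT over labelled-DKO villus were -0.46 for Hnf4a, -1.37 for Hnf4g and 0.73 for Hnf4aos.

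The parts of Hnf4a and Hnf4g that were deleted are not given in the sources used here, and Pol II recruited to a gene whose product is lost is still counted. The values at the targeted genes therefore do not check the genotype, and the villi are called labelled DKO throughout. The directions rest on the order of groups in the tables' names.

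**Figure D2:**
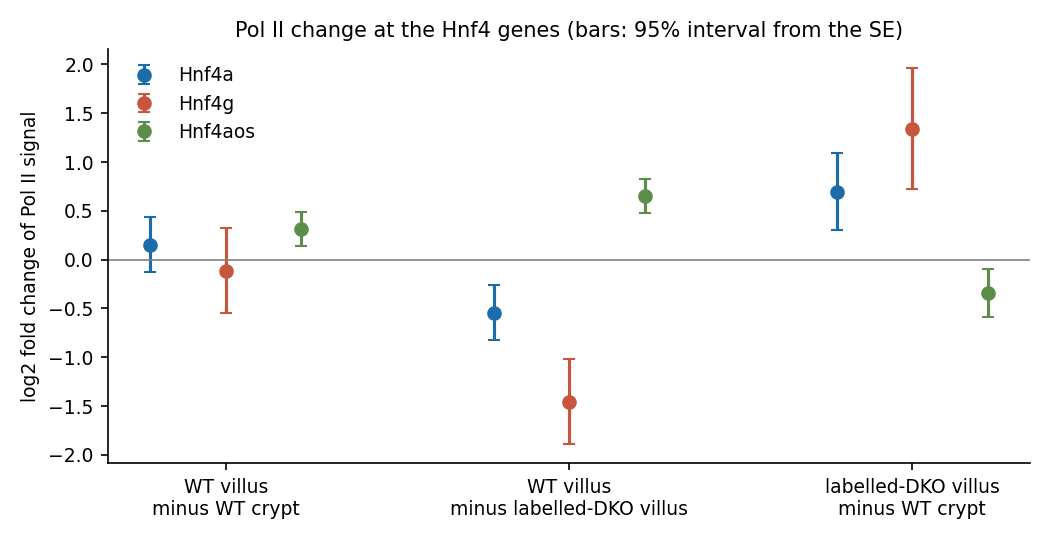
Log2 fold changes of Pol II signal for Hnf4a, Hnf4g and Hnf4aos in 3 comparisons, with 95% intervals from the standard errors. Hnf4a and Hnf4g lie below 0 in WT minus labelled-DKO villus while Hnf4aos lies above it. Against crypt the signs turn because labelled-DKO villus is then the group on the left of the subtraction.

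Labelled-DKO villus was also set against WT crypt by subtracting one deposited log2 fold change from the other, with the largest standard error that independent libraries allow. It shares all its libraries with the comparisons above and adds no independent evidence. Hnf4g was 2.54-fold higher in labelled-DKO villus than in crypt, with a 95% interval of 1.65 to 3.90. Its Benjamini-Hochberg adjusted p was 4.85e-04, from a Wald test on this rebuilt difference and not from a DESeq2 fit. Hnf4a was 1.62-fold higher, with an interval of 1.23 to 2.13 and an adjusted p of 0.00686 in the same Wald test. Hnf4aos was 1.27-fold lower in labelled-DKO villus than in crypt, with an interval of 1.07 to 1.50 and an adjusted p of 0.0489, close to the threshold. All 3 genes were called, beside 13.6% of all genes. Of all genes 6.41% passed with more signal in labelled-DKO villus and 7.19% with more in crypt. These shares rest on that largest standard error, so they cannot be set against the shares called in the deposited comparisons.

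The mean signal of each group was rebuilt from the overall mean and the pair of fold changes, with equal weight for each group. For Hnf4a it was 1226 in WT crypt, 1363 in WT villus and 1986 in labelled-DKO villus. The neighbouring crypt and villus values did not differ beyond their error, and labelled-DKO villus was above both. For Hnf4g it was 1112 in WT villus, 1201 in WT crypt and 3046 in labelled-DKO villus, with the first pair again not told apart. Labelled-DKO villus held 56.8% of the sum of the 3 group means at Hnf4g, and 43.4% at Hnf4a. For Hnf4aos the order was 591 in labelled-DKO villus, 748 in WT crypt and 928 in WT villus, and each step passed its test.

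**Figure D3:**
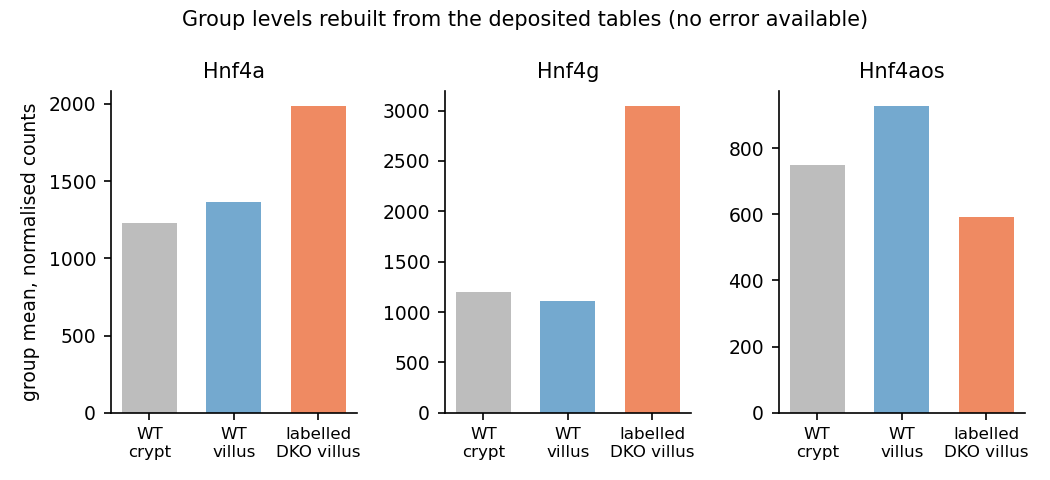
Rebuilt group means in normalised counts for each gene, with bars from 0 and a separate axis for each gene, and no error bars since no value per library was used. Labelled-DKO villus is the highest group at Hnf4a (1986) and Hnf4g (3046) and the lowest at Hnf4aos (591).

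Set within all genes, the crypt-villus values of the members were ordinary. At Hnf4a 66.0% of genes had a larger change in either direction, at Hnf4g 75.0% and at Hnf4aos 38.4%. Between WT and labelled-DKO villus 26.8% of genes had a larger change than Hnf4a, 3.75% a larger change than Hnf4g and 19.8% a larger change than Hnf4aos. The pattern of Hnf4a and Hnf4g, not called between villus and crypt and called higher in labelled-DKO villus, was that of 965 of the 6429 genes, these members included. The pattern of Hnf4aos, called higher in WT villus in both tables, was that of 900 of the 6429 genes, Hnf4aos included.

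**Figure D4:**
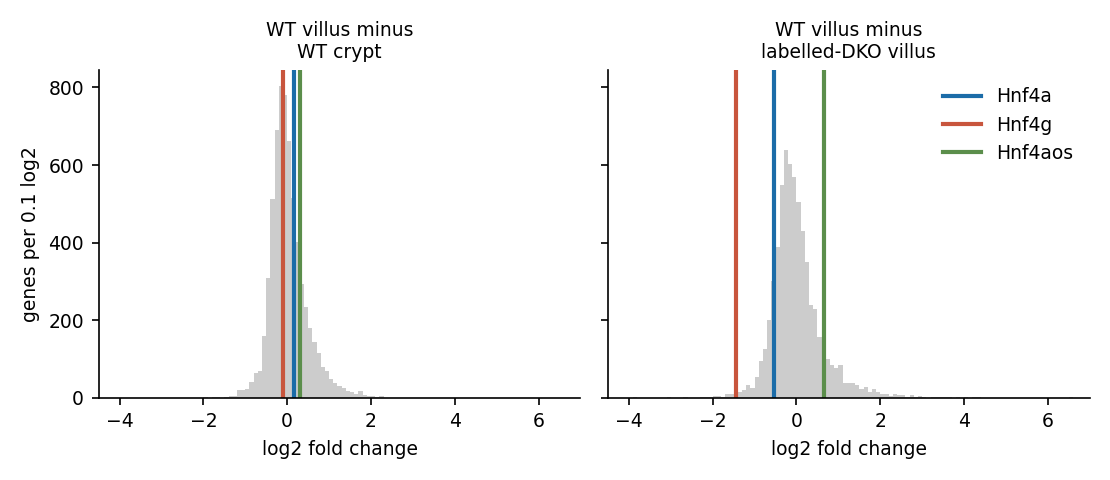
Number of genes in bins of 0.1 of the log2 fold change for both deposited comparisons, with the 3 genes as vertical lines. The lines lie near the centre for villus against crypt and apart from each other for WT against labelled-DKO villus, at -1.45 for Hnf4g, -0.54 for Hnf4a and 0.65 for Hnf4aos.

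The genes most like each member were found by the distance between pairs of log2 fold changes in the authors' deposited tables, which describes 2 values per gene and no more. Nearest to Hnf4g were Med13, Lmna, Mmp28, Pfdn1 and Elovl6, at distances of 0.07 to 0.12. Med13, a subunit of the Mediator kinase module, had -0.07 ± 0.30 for villus over crypt and -1.40 ± 0.30 for WT over labelled-DKO villus in the authors' deposited tables. Elovl6, an enzyme that lengthens fatty acids, had -0.20 ± 0.21 and -1.54 ± 0.21 in the authors' deposited tables. Nearest to Hnf4a were Yars, Mapk15, Fzr1, Cops4 and Ptgr1, at 0.01 to 0.04. Their standard errors of 0.18 to 0.25 were larger than these distances, and many genes lie close to Hnf4a on these axes. Nearest to Hnf4aos were Zfand2b, Pink1, Slc5a9, Lrp2bp and LOC102631993, at distances of 0.01 to 0.02. Of these Slc5a9, a sodium-dependent sugar transporter, had 0.31 ± 0.17 and 0.64 ± 0.17 in the authors' deposited tables.

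Around Hnf4a and Hnf4aos, 24 other genes had windows within 500 kb on chromosome 2, and 10 of them were among the genes tested. In the authors' deposited table of WT against labelled-DKO villus 6 passed with more signal in WT villus and 2 with more in labelled-DKO villus, beside 22.4% and 29.5% of all genes. Their median log2 change was 0.64, against -0.08 for all genes. Downstream of Hnf4a the changes were 0.78 ± 0.07 for Ttpal, 1.27 ± 0.07 for Serinc3, 1.69 ± 0.13 for Pkig and 4.39 ± 0.18 for Ada in the authors' deposited table. Ttpal encodes a tocopherol transfer protein-like lipid carrier, Serinc3 a membrane protein, Pkig an inhibitor of protein kinase A, and Ada the enzyme adenosine deaminase. The window of Ada began 153663 bp beyond the last Hnf4a window. Each of these 4 genes thus moved opposite to Hnf4a. Farther on, Ywhab and Tomm34 had -0.42 ± 0.11 and -0.27 ± 0.10 and were called higher in labelled-DKO villus in the authors' deposited table. Upstream, R3hdml had 0.75 ± 0.19 and Sgk2 0.53 ± 0.08, both called, while Fitm2 at 0.03 ± 0.25 and Oser1 at 0.15 ± 0.10 did not pass in the authors' deposited table. The body window of R3hdml lay for 93.3% of its length inside that of Hnf4aos, so these 2 genes share reads in the body counts. Whether their gene values given here share reads was not tested.

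Between villus and crypt, 4 of the same 10 genes in the authors' deposited table were called higher in villus (Ada, Pkig, R3hdml and Sgk2), 2 were called higher in crypt (Serinc3 and Ywhab) and 4 did not pass, beside 18.6% and 18.8% of all genes called in these directions. Their median was 0.0020, against -0.04 for all genes. Among the windows used here, no other gene lay within 500 kb of Hnf4g.

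**Figure D5:**
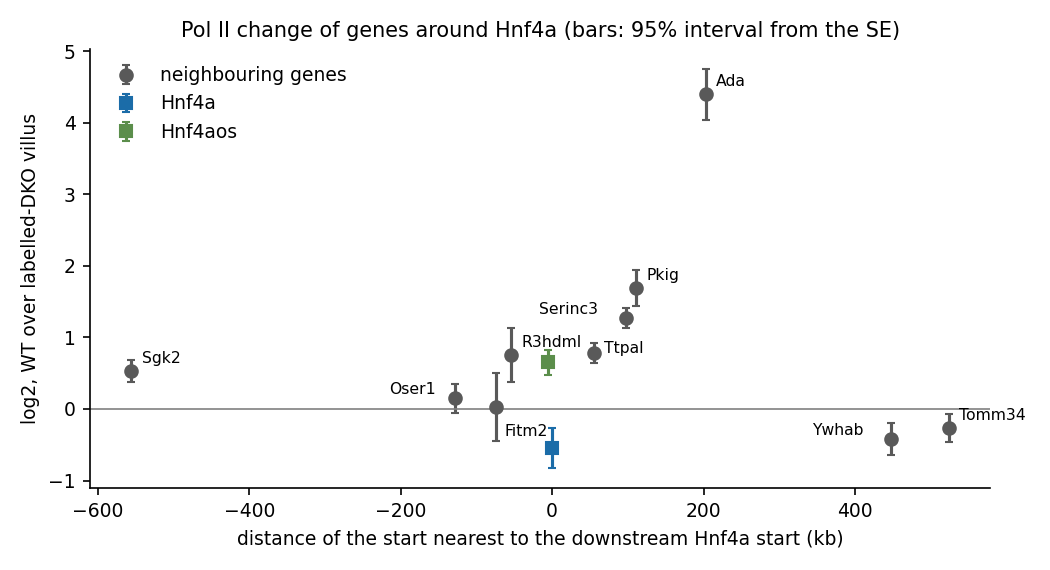
Log2 ratio of WT to labelled-DKO villus for the 10 tested genes within 500 kb of the locus, Hnf4a and Hnf4aos, by distance in kb of the start nearest to the downstream Hnf4a start, with 95% intervals from the standard errors. Ada stands highest at 4.39, and Hnf4a lies below 0 between neighbours that lie above it.

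Other regulators of the tissue were then read from lists of genes. Of 30 transcription factors of the intestinal epithelium, 25 were in the tables. In the authors' deposited table of the genotypes, 8 passed with more signal in WT villus and 6 with more in labelled-DKO villus, beside 22.4% and 29.5% of all genes. Their median was 0.10, against -0.08 for all genes, and the 14 called of 25 were near the 51.9% of all genes. The lowest values were those of Isx, a homeobox factor that represses vitamin A uptake, at -1.19 ± 0.13, and Gata4, a factor of proximal intestinal identity, at -0.92 ± 0.08 in the authors' deposited table. Between villus and crypt 10 were called higher in villus and 4 were called higher in crypt, beside 18.6% and 18.8% of all genes.

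Of 29 other nuclear receptors, the family of HNF4A and HNF4G, 21 were in the tables. In the authors' deposited table of the genotypes, 12 passed with more signal in WT villus and 4 with more in labelled-DKO villus, beside the same 22.4% and 29.5%, with a median of 0.42 against -0.08 for all genes. Nr1d1, a repressor of the circadian clock, had 1.41 ± 0.25, and Nr1i2, the pregnane X receptor, had 1.09 ± 0.15. Ppara, a receptor that drives fatty acid oxidation, had -0.85 ± 0.10, and Nr1h4, the bile acid receptor, had -0.77 ± 0.11 in the authors' deposited table. Hnf4a and Hnf4g thus fell on the side of the minority of this list. Between villus and crypt 7 receptors were called higher in villus and 1 was called higher in crypt, beside 18.6% and 18.8% of all genes.

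Of 24 genes listed here as HNF4 targets without a cited source, 21 were in the tables. They include every tested enterocyte marker used below but Vil1. In the authors' deposited table of the genotypes, 20 passed with more signal in WT villus and 1 with more in labelled-DKO villus. Of all genes 22.4% and 29.5% passed in these directions. The median of the list was 1.91, against -0.08 for all genes. Apoa4 and Pck1 had the highest values, at 3.87 ± 0.22 and 3.50 ± 0.22. Apoa4 is an apolipoprotein of chylomicrons and Pck1 an enzyme of gluconeogenesis. Cyp27a1, which oxidises the side chain of cholesterol, was the exception at -1.49 ± 0.24 in the authors' deposited table. Between villus and crypt 19 were called higher in villus, beside 18.6% of all genes, and 2 did not pass. Their median there was 1.42, against -0.04 for all genes. These lists were chosen with results of these data known and are a description.

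The labelled tissue was checked with markers. Of 10 enterocyte markers 9 were in the tables. In the authors' deposited tables each had more signal in villus than crypt past the threshold, from 1.03 to 2.11 on the log2 scale. Each of the 9 also passed with more in WT villus than in labelled-DKO villus, from 0.49 to 3.87. Of all genes 18.6% and 22.4% were called in these directions. All of the 9 but Vil1 are also in the list of HNF4 targets, so their values repeat that list. Of 10 crypt markers 2 were in the tables, and Pcna and Axin2 were both called higher in crypt, beside 18.8% of all genes. They stood at -0.95 ± 0.20 and -0.49 ± 0.17 in the authors' deposited table. Between the genotypes Pcna was called higher in labelled-DKO villus, the direction of Hnf4a and Hnf4g, at -0.62 ± 0.20 (DESeq2 adjusted p 0.00568). Of all genes 29.5% were called in that direction. Axin2 did not pass in the authors' deposited table, at -0.38 ± 0.17 (DESeq2 adjusted p 0.0531). Of 7 secretory markers 4 were present. Agr2 was called higher in labelled-DKO villus, at -1.06 ± 0.13, beside the same 29.5% of all genes. Chga, Muc2 and Tff3 did not pass, at 0.12, 0.15 and 0.17, and the median was 0.14 in the authors' deposited table. Between villus and crypt these markers split. Muc2 at 0.93 ± 0.17 and Tff3 at 0.51 ± 0.19 were called higher in villus, beside 18.6% of all genes. Agr2 at -0.66 ± 0.13 was called higher in crypt, beside 18.8%. Chga did not pass there, at 0.03 ± 0.14 in the authors' deposited table. Of 6 immune markers Cd74 alone was present, called with more signal in WT than in labelled-DKO villus at 1.33 ± 0.24. It was also called higher in villus than in crypt, at 0.72 ± 0.24 in the authors' deposited table. Of all genes 22.4% and 18.6% were called in these directions. No mesenchyme marker of 6 and no pancreas or liver marker of 4 was among the genes tested. In these bulk samples a changed share of cells of a type and a changed Pol II signal per cell cannot be told apart, and the part of cell composition in the values at Hnf4a, Hnf4g and Hnf4aos was not tested.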

How the data were processed

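Pol II ChIP-seq libraries were grouped by the labels' titles. The submitters' processing notes name Bowtie2 2.2.6, SAMtools 0.1.19, DESeq2 1.36.0 and the build mm9. Per the file headers, window counts came from featureCounts 2.0.3 on pairs of reads, with a minimum mapping quality of 30 and duplicates ignored. The 18 count columns carry no names and were not used, so depth per library was not analysed here. The authors deposited, per gene, a mean signal (counts over size factors), a Wald score, the log2 fold change with its standard error, and p-values before and after adjustment. The gene filter, the window counted and any shrinkage are not given in the sources used here.

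From these, 95% intervals, group means, a comparison of labelled-DKO villus with crypt (difference of 2 fold changes, Benjamini-Hochberg over 6429 genes) and window overlaps were computed with Python 3.11.15, pandas 2.3.3 and scipy 1.17.1. That comparison was tested on simulated data for 6429 genes, where 90.5% of 200 genes changed by 1 on the log2 scale were recovered and 0 unchanged genes were called. The simulated errors were normal, with a known spread that was equal in the 3 groups. The largest standard error is too large in that setting, so few false calls could arise. A spread estimated from few libraries was not simulated. RefSeq symbols matched 6418 table genes, and promoter sequences were found for Hnf4a and Hnf4aos.

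Named were the 3 genes, tested genes within 500 kb, the 5 nearest genes in both fold changes, and at most 4 extreme genes per list. The highest values of the transcription factor list are not reported here. Members and lists were chosen with earlier results of these data known. Alternatives were an adjusted p under 0.01, a log2 change beyond 1, centring and another standard error.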

Additional observations from a re-analysis of the deposited data

How the results depend on the processing

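The number of the 3 genes called moved with the size of change required. With a log2 fold change beyond 1 it was 0 for villus against crypt in place of 1, 1 (Hnf4g) for WT against labelled-DKO villus in place of 3, and 1 (Hnf4g) for labelled-DKO villus against crypt in place of 3. The share of all genes that pass this limit is not given here, so whether these counts are few or many cannot be read from them. An adjusted p under 0.01 and centring kept these counts within 1.5 times. Of the recomputed fold changes, 24 stayed on the same side of the threshold with the same sign and 6 no longer passed, with none reversed. The 9 group levels moved with centring by less than the standard error of the log2 fold change between the genotypes. Among the 6, Hnf4aos in labelled-DKO villus against crypt did not pass 0.01 (adjusted p 0.0489, Wald test on the rebuilt difference). A standard error with equal spread in the groups gave 9.04e-04 in that test. The comparison of labelled-DKO villus with crypt and its settings were chosen after seeing the data.

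No paired analysis was possible because the count columns carry no replicate numbers. The planned edgeR tests of promoter and gene body counts, of their ratio and of the alternative Hnf4a promoters, with their alternatives and with each replicate left out, were not run for the same reason.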

Other observations

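The gene body windows were placed differently on the 2 strands, which touches the body window of Hnf4aos and not those of Hnf4a or Hnf4g. The overlaps given above, also those of Hnf4a and R3hdml with Hnf4aos, use the windows as placed. On the plus strand, in all 19858 transcripts with both windows, the body window began 48 bp after the end of the promoter window. On the minus strand, in all 21190 such transcripts, it held the whole promoter window and reached 250 bp beyond its upstream edge. The table's name gives a body from 350 bp after the start to 500 bp before the end, which is 850 bp less than the gene. Among genes with 1 curated RefSeq transcript, the median difference between body window and RefSeq gene span was -850 bp for 6355 plus strand transcripts, and 57.2% had exactly this value. For 7603 minus strand transcripts it was 850 bp, and 62.8% had exactly this value. Body windows were absent for 11.4% of the plus strand promoter windows and for 3.27% of the minus strand ones. A promoter to body ratio of a single transcript from these windows would count the promoter of Hnf4aos in both terms. The same transcript's promoter window was outside its body window for Hnf4g and for each Hnf4a transcript, although the downstream Hnf4a promoter window lay in the body window of the longer Hnf4a transcripts. Whether the deposited gene values used these body windows was not tested.

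The standard errors of the members were unequal. Among the 118 genes with a mean signal of at least 1000, a limit chosen after seeing the data, 18 had a larger standard error than Hnf4g (0.22) and 39 had a larger one than Hnf4a (0.14) in WT against labelled-DKO villus, with a median of 0.12. Hnf4aos, at the lower mean signal of 756, had a standard error of 0.09.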
